A study of Mus musculus with 6 samples.

Results

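The 8 genes described here are markers by which liver biologists tell portal fibroblasts and the mesothelium apart from hepatic stellate cells: Thy1, Upk1b, Upk3b, Msln, Gpm6a, Entpd2, Gpc3 and Cd34. They were taken by symbol, with no threshold on their values, and all 8 of 8 were measured, each by 1 probe, among 16446 gene symbols on 23473 probes. The study profiled messenger RNA on single-colour (Cy5) arrays. The RNA came from hepatic stellate cells of mice in which carbon tetrachloride (CCl4), a liver toxin, had induced cirrhosis. One group of 3 arrays was labelled wild type (WT) and the other group of 3 SEPT4-KO (KO), meaning mice that lack the septin gene Sept4. The labels give no mouse strain, age or cell isolation, and both groups carried the CCl4 injury. No value for Sept4 itself is used here, and the genotypes are as labelled. The labels do not say whether the arrays of a genotype came from separate mice, so the p-values reflect only how far these 6 samples scatter, and that scatter may be technical.

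Portal fibroblasts are the connective tissue cells around the bile ducts and vessels of the portal tract, and they can make scar in biliary disease. The mesothelium is the single cell layer that covers the liver capsule, and its cells carry epithelial as well as mesenchymal genes. Stellate cells lie between the hepatocytes and the sinusoids and store vitamin A. The 3 cell types share mesenchymal genes, and several of the markers below are used to recognise portal fibroblasts or mesothelial cells in a preparation of liver mesenchyme. Some are shared with further cell types: Thy1 is also the Thy-1 antigen of T cells and neurons, and Cd34 also marks endothelial and blood-forming cells.

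The markers did not move as a group. In knockout cells Thy1, Upk1b and Gpm6a fell, Entpd2 and Cd34 rose, and Upk3b, Msln and Gpc3 did not pass the test. Thus 5 of 8 reached an adjusted p under 0.05, where 42.7% of all probes did, in a limma model fitted over all probes with Benjamini-Hochberg adjustment. Of the markers 2 of 8 were called higher, against 26.7% of all probes, and 3 of 8 lower, against 16.0%. Over all probes 62.6% of the calls were thus higher, a share that was 52.5% after quantile normalisation and 51.5% after cyclic loess, while the markers kept 2 higher and 3 lower calls under both. The 3 that fell were called and differed at least 2-fold, which held for 7.02% of all probes. The median difference of the 8, knockout minus wild type, was -0.64 on the log2 scale, beside 0.12 over all probes. These shares describe a short list chosen with results of these data known and are no test of it.

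All the values below are normalised log2 signals, which cannot be set against each other from probe to probe. The median of every array was 5.02, and 5 of the 8 probes were dim, with a mean over the 6 arrays between 2 and 4. In that range 19.1% of all probes were called, and 2 of these 5 markers were. Another 2 markers had means between 4 and 6, where 44.2% of all probes were called, and both were. The genotypes did not overlap for 5 of the 8, those that passed, and for 56.2% of all probes. Every array has a floor, the smallest number it holds, which many faint probes share. Among the 8 markers 1 reached it, Upk3b on 1 knockout array.

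**Figure D1:**
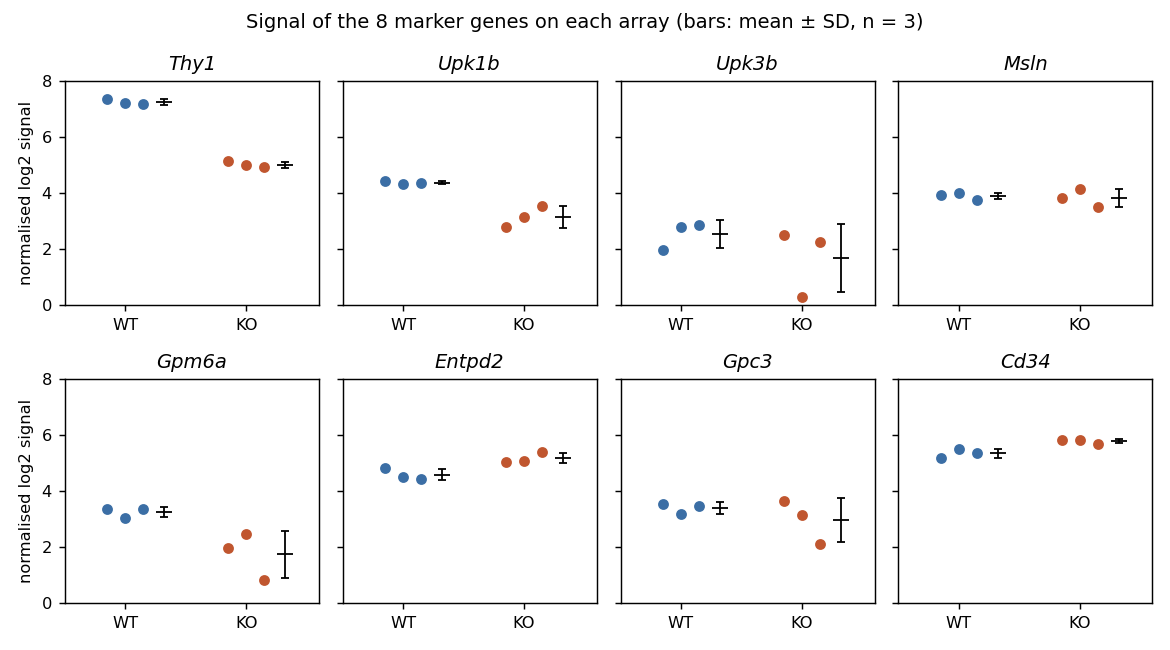
Normalised log2 signal (vertical axes) of each marker on every array, with wild-type arrays (WT) in blue, knockout arrays (KO) in orange, and black bars for the mean ± SD of the 3 arrays. The Thy1, Upk1b and Gpm6a panels show knockout points wholly below the wild-type points, Entpd2 and Cd34 wholly above, and the remaining panels overlap.

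RefSeq promoter windows, from 250 bases before to 50 after a transcription start (build GRCm38.p6), matched 5 of the 8 genes, all but Thy1, Upk1b and Msln. Those of called genes are shown because they hold the DNA at the starts of both genes that rose and of 1 that fell. Entpd2 lies at chr2:25395624-25395923 and Cd34 at chr1:194938571-194938870, both on the + strand. Gpm6a has windows at 2 starts, chr8:54779184-54779483 and chr8:54954478-54954777, on the + strand, and which start the probe reads is not known here. Capitals mark matches, on either strand and with none overlapping, to the GC box GGGCGG, the AP-1 site TGANTCA, the TATA box TATAAA and the TEAD site GGAATG.
Entpd2: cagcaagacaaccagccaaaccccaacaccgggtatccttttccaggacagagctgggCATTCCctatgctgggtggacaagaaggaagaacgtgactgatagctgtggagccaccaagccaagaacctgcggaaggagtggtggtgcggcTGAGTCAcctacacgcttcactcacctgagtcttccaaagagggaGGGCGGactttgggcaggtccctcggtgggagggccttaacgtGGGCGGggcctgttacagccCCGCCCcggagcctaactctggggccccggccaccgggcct
Cd34: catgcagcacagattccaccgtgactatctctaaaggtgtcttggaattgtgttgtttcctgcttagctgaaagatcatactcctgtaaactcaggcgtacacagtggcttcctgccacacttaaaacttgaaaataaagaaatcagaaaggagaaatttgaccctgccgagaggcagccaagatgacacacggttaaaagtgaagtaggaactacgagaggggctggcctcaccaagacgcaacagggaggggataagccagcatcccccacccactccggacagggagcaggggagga
Gpm6a, first start: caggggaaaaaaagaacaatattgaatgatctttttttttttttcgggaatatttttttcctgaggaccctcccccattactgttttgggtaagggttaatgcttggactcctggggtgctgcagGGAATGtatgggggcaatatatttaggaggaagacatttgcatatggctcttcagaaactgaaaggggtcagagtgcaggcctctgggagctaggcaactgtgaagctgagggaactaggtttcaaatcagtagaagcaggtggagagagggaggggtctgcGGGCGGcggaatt
Gpm6a, second start: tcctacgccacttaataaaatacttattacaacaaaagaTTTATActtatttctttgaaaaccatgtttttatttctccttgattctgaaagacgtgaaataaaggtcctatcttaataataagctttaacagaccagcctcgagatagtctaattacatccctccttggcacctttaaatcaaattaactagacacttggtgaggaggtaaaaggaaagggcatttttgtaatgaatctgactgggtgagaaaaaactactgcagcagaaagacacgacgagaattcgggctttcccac

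The 2 genes that rose had unlike windows. The Entpd2 window was 62.0% G and C and held 3 GC boxes, 1 AP-1 match and 1 TEAD match, whereas the Cd34 window, less rich in G and C, held none of the 4 motifs. The first Gpm6a window held 1 GC box and 1 TEAD match, and the second held 1 TATA box. Among 32851 windows of the same length, 35.7% held the GC box, 7.81% the AP-1 site, 13.6% the TATA box and 14.7% the TEAD site. Matches describe letters in these windows only.

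Thy1 encodes a small glycoprotein held at the cell surface by a lipid (GPI) anchor, and it is a widely used surface marker of portal fibroblasts. Its signal was 7.37, 7.22 and 7.18 on the wild-type arrays and 5.14, 4.99 and 4.93 on the knockout arrays. The lowest wild-type value lay 2.04 above the highest knockout value, and the arrays of each genotype stayed close together. The mean fell from 7.26 ± 0.10 to 5.02 ± 0.11 (SD, n = 3), which is a step in log2 signal of -2.24 ± 0.09 (SE), or 4.72-fold, with an adjusted p of 0.000293 (limma). Its difference was larger in size than that of 99.43% of all probes. The 95% confidence interval ran from -2.46 to -2.02. Under the 14 alternative settings the difference stayed between -2.30 and -2.16. In RNA from a cell preparation, fewer Thy1-bearing cells and less Thy1 RNA per cell cannot be told apart.

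T cells carry Thy1 too, so their markers were read on the same arrays. Of 10 measured T and natural killer cell genes, 40.0% passed, beside 42.7% of all probes. Among these genes 2 rose (Cd3g by 1.65 and Cd28 by 0.26) and 2 fell (Cd8a by 0.99 and Cd4 by 0.50). Their summed log2 signal ran from 27.8 to 30.2 on the wild-type arrays and from 29.5 to 33.7 on the knockout arrays, so the 2 ranges overlapped. In that sum dim genes weigh as much as bright ones, and 4 of the 10 were at the floor of at least 1 array. The median difference of the list was 0.17, and -0.03 over the 6 genes left without probes at a floor. Cd3g was at the floor of 2 wild-type arrays, so its difference is not exact, and it was 0.81 with an offset added on the linear scale. Of the other genes of the T cell receptor complex, named after their values were seen, Cd3e was at the floor of 1 wild-type array. Cd3d was at no floor, with a mean of 4.86 in wild-type cells and a difference of -0.14 (adjusted p = 0.308). No marker of the list was at the floor throughout a genotype. Except for Cd3g, these calls ended under some settings. Cd4 ended at adjusted p-values of 0.0692, 0.105 and 0.119 without wild-type replicates 1, 2 and 3 and 0.0693 without knockout replicate 2, and at 0.0582 and 0.0520 after quantile normalisation and cyclic loess. Cd8a ended at 0.110 and 0.104 without wild-type replicates 1 and 2, and at 0.0684, 0.0955 and 0.0724 without knockout replicates 1, 2 and 3. Cd28 ended at 0.0673, 0.123 and 0.101 without wild-type replicates 1, 2 and 3 and at 0.109 and 0.117 without knockout replicates 1 and 2, and it differed by only 0.15 (adjusted p = 0.191) after quantile normalisation and by 0.14 (adjusted p = 0.204) after cyclic loess. The part of these cells in the Thy1 signal was not tested.

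Upk1b, Upk3b, Msln and Gpm6a are read here as the mesothelial markers of the list, and which cells gave their signal was not tested. Upk1b encodes uroplakin 1b, a tetraspanin of the urothelial plaque that mesothelial cells also make. Its signal was 4.43, 4.34 and 4.35 on the wild-type arrays and 2.78, 3.13 and 3.54 on the knockout arrays. Every knockout array was below every wild-type array, by at least 0.80. The mean fell from 4.37 ± 0.05 to 3.15 ± 0.38 (SD, n = 3), which is a step in log2 signal of -1.23 ± 0.20 (SE), or 2.34-fold, with an adjusted p of 0.00674 (limma). The spread was 7.85 times as large between knockout as between wild-type arrays. The call held under all 14 alternative settings, with differences of -1.42 to -1.04.

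Gpm6a encodes glycoprotein M6A, a proteolipid-family membrane protein known from neurons and used to mark liver mesothelium. It read 3.36, 3.03 and 3.35 in wild-type cells and 1.94, 2.44 and 0.81 in knockout cells. The groups were apart by 0.59, and the knockout values themselves spanned a wide range near the bottom of the scale, where between 6.54% and 20.0% of the probes on their array were dimmer. The mean fell from 3.25 ± 0.19 to 1.73 ± 0.84 (SD, n = 3), which is a step in log2 signal of -1.52 ± 0.44 (SE) with a 95% confidence interval of -2.64 to -0.39. The adjusted p was 0.0432 in limma, close to the threshold. The call ended without wild-type replicates 1, 2 and 3, at adjusted p-values of 0.116, 0.0885 and 0.117, without knockout replicate 1, at 0.0849, and with array weights, at 0.0593. Without the dimmest 25% of probes Gpm6a was not tested.

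Upk3b, which encodes the plaque protein uroplakin 3b, did not pass the test. It read 1.96, 2.80 and 2.88 in wild-type cells and 2.51, 0.31 and 2.26 in knockout cells, and the groups overlapped. The value of 0.31 was the floor of its array, so it is only a bound. The log2 difference was -0.86 ± 0.67 (SE), with a 95% confidence interval of -2.57 to 0.86 and an adjusted p of 0.358 in limma. Without that array, knockout replicate 2, the difference was -0.16.

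Msln encodes mesothelin, a GPI-anchored surface protein of mesothelial cells that binds the mucin of Muc16. It read 3.94, 3.99 and 3.77 in wild-type cells and 3.84, 4.15 and 3.52 in knockout cells. The highest and the lowest of the 6 values were both knockout arrays. The log2 difference was -0.07 ± 0.18 (SE), with a 95% confidence interval of -0.52 to 0.39 and an adjusted p of 0.794 in limma, an interval that spans changes in both directions. Without knockout replicate 3 the difference was 0.09 (adjusted p = 0.629).

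Among the portal fibroblast markers, Entpd2 took the opposite direction to Thy1. Entpd2 encodes NTPDase2, an ectonucleotidase that cuts extracellular ATP and is found on portal fibroblasts around bile ducts. Its signal was 4.80, 4.50 and 4.41 in wild-type cells and 5.05, 5.08 and 5.37 in knockout cells, with no overlap and a gap of 0.25. The mean rose from 4.57 ± 0.20 to 5.16 ± 0.18 (SD, n = 3), which is a step in log2 signal of 0.59 ± 0.14 (SE), or 1.51-fold, with an adjusted p of 0.0245 (limma). The call ended without wild-type replicates 2 and 3, at adjusted p-values of 0.0796 and 0.0727, and without knockout replicates 2 and 3, at 0.0536 and 0.0570.

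Cd34 encodes a sialomucin of the cell surface that marks adventitial and portal fibroblasts as well as endothelium. It read 5.18, 5.49 and 5.34 in wild-type cells and 5.81, 5.80 and 5.68 in knockout cells. The groups did not overlap, but only 0.19 lay between them. The mean rose from 5.34 ± 0.15 to 5.76 ± 0.07 (SD, n = 3), which is a step in log2 signal of 0.42 ± 0.10 (SE), or 1.34-fold, with an adjusted p of 0.0197 (limma). The call ended without wild-type replicate 3, at an adjusted p of 0.0600, and without knockout replicates 1 and 2, at 0.0621 and 0.0641.

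Endothelium carries Cd34 too, and its genes were read on the same arrays. Of 14 measured endothelial markers, 6 rose, 1 fell and 7 did not pass. Of all probes 42.7% were called, 26.7% higher and 16.0% lower. The summed log2 signal of the 14 ran from 73.4 to 76.8 on the wild-type arrays and from 77.7 to 80.1 on the knockout arrays. Plvap, the diaphragm protein of fenestrae, rose by 1.26, the inhibitory Fc receptor gene Fcgr2b by 1.13 and the scavenger receptor gene Stab1 by 0.73. Vwf, the clotting factor carrier of endothelium, rose by 2.12, from a wild-type mean of 1.09 that included 1 array at its floor, and by 1.30 with the linear offset. The Vwf call ended with array weights (0.0787), cyclic loess (0.0505) and the replicate block (0.0728). It also ended when wild-type replicate 1 or 3 was left out, at adjusted p-values of 0.117 and 0.0979. Leaving out knockout replicate 1, 2 or 3 ended it too, at 0.0991, 0.0978 and 0.0993. The sialomucin gene Emcn fell by 1.63. The defining genes Pecam1 and Cdh5, named after their values were seen, differed by 0.02 (adjusted p = 0.873) and 0.83 (adjusted p = 0.259), and none of the 14 was at the floor throughout a genotype. Stab2, Tek and Lyve1 (on the array as Xlkd1), also named afterwards, did not pass and differed by -0.70, -0.32 and -0.26. Their adjusted p-values in limma were 0.327, 0.288 and 0.142. Kdr and Tie1 did not pass either and differed by -0.02 and 0.04. The part of endothelial cells in the Cd34 signal was not tested.

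Gpc3 encodes glypican 3, a GPI-anchored heparan sulfate proteoglycan of foetal liver and liver tumours. It read 3.54, 3.16 and 3.46 in wild-type cells and 3.63, 3.15 and 2.12 in knockout cells. Of the knockout values 1 lay just above the wild-type range, 1 just below it and the third well below it. The log2 difference was -0.42 ± 0.41 (SE), with a 95% confidence interval of -1.47 to 0.63 and an adjusted p of 0.462 in limma. Without that array, knockout replicate 3, it was 0.0064 (adjusted p = 0.984).

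Knockout replicate 3 gave the lowest of the 3 knockout values for 5 of the 8 markers, and for 28.8% of all probes. The knockout SD exceeded the wild-type SD for 6 of the 8, and for 54.0% of all probes. An exact two-sided permutation test of each marker gave p = 0.1 for the 5 whose groups did not overlap, which is the smallest value that 3 arrays against 3 can give. It gave 0.4 for Upk3b, 0.8 for Msln and 0.6 for Gpc3.

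**Figure D2:**
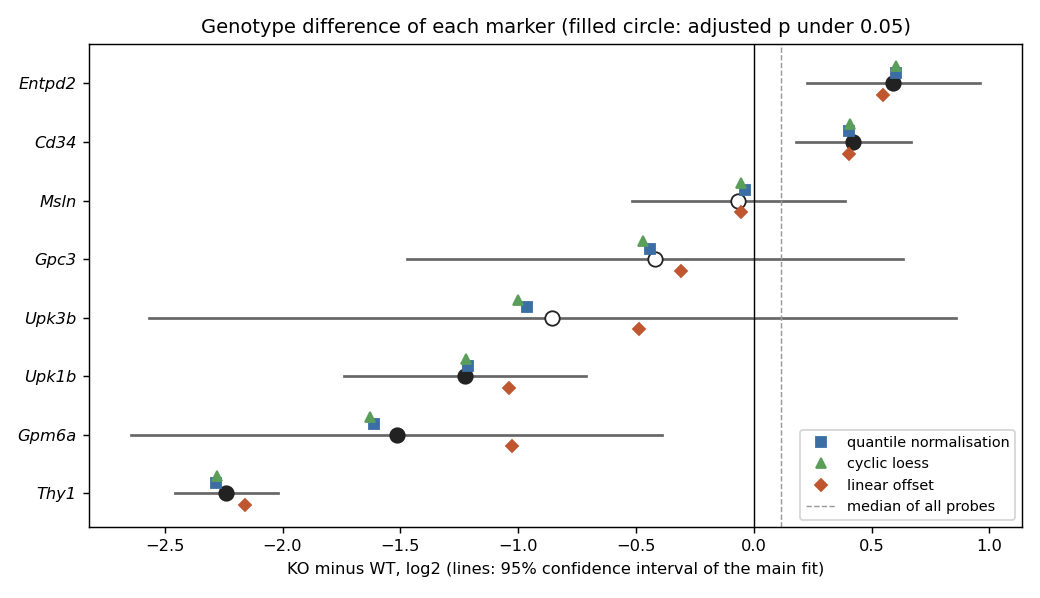
Log2 difference (horizontal axis, knockout minus wild type) of each marker, with the 95% confidence interval as a line, and the same difference after quantile normalisation, cyclic loess and the linear offset as coloured symbols. Filled circles, for Thy1 (-2.24), Gpm6a, Upk1b, Cd34 and Entpd2 (0.59), passed an adjusted p of 0.05, and the dashed line is the median of all probes.

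Further genes of the mesothelium did not share 1 direction. Of 22 measured, 6 rose, 4 fell and 12 did not pass, with a median difference of -0.11. The called share was 45.45%, near the 42.7% of all probes. All probes were likewise called in both directions, 26.7% higher and 16.0% lower, so the mix is not particular to this list. The summed log2 signal ran from 116.3 to 119.3 in wild-type and from 114.2 to 118.9 in knockout cells. Cpe, which encodes the prohormone-processing carboxypeptidase E, fell from 10.52 ± 0.04 to 8.57 ± 0.05 (SD, n = 3), that is by 1.95 on the log2 scale, with 0.000214 as its adjusted p in limma. Clu, the secreted chaperone clusterin, rose by 1.07, the P-cadherin gene Cdh3 by 0.67 and Dmkn (on the array as 1110014F24Rik), a secreted epithelial protein, by 0.63. Tmem151a (on the array as AW125688) fell by 0.55, but its call ended when any of wild-type replicates 1, 2 and 3 or knockout replicate 1 was left out, at adjusted p-values of 0.0937, 0.108, 0.0709 and 0.0789, and with the trended and robust prior, at 0.0916. Further genes of the list are named after their values were seen. Pdpn, the podoplanin gene, fell by 0.43, and the retinaldehyde dehydrogenase gene Aldh1a2 rose by 0.48. The Aldh1a2 call ended without wild-type replicates 1 and 3, at adjusted p-values of 0.0696 and 0.0705, and without knockout replicates 1 and 2, at 0.0791 and 0.0794. The transcription factor gene Wt1 differed by -0.25 (adjusted p = 0.434), Muc16 (on the array as 1110008I14Rik), the partner of mesothelin, by -0.73 (adjusted p = 0.354), and the keratin gene Krt19, which is also in the cholangiocyte list, by 0.51 (adjusted p = 0.0785). The dim gene Lrrn4 (on the array as B430119L13Rik) was at the floor of 2 knockout arrays.

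Further portal fibroblast genes were likewise split. Of 22 measured, 4 rose, 5 fell and 13 did not pass, with a median difference of -0.03. The called share was 40.91%, near the 42.7% of all probes, of which 26.7% were called higher and 16.0% lower. The sums ran from 130.4 to 131.9 in wild-type and from 129.9 to 130.6 in knockout cells. Osr1, a zinc finger factor of embryonic mesenchyme, fell from 5.56 ± 0.05 to 4.36 ± 0.05 (SD, n = 3), that is by 1.20 on the log2 scale, with 0.000425 as its adjusted p in limma. Mfap5, a microfibril-associated glycoprotein, fell by 0.77 and the stromal surface protein gene Cd248 (endosialin) by 0.57. Efemp1, which encodes the matrix protein fibulin 3, rose by 1.17 and the insulin-like growth factor carrier gene Igfbp3 by 0.73. Elastin (Eln), a classical product of portal fibroblasts, named after its value was seen, differed by 0.05 (adjusted p = 0.521), or by -0.03 after quantile normalisation, and Fbln2, the fibulin 2 gene, was at the floor of 1 array of each genotype.

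**Figure D3:**
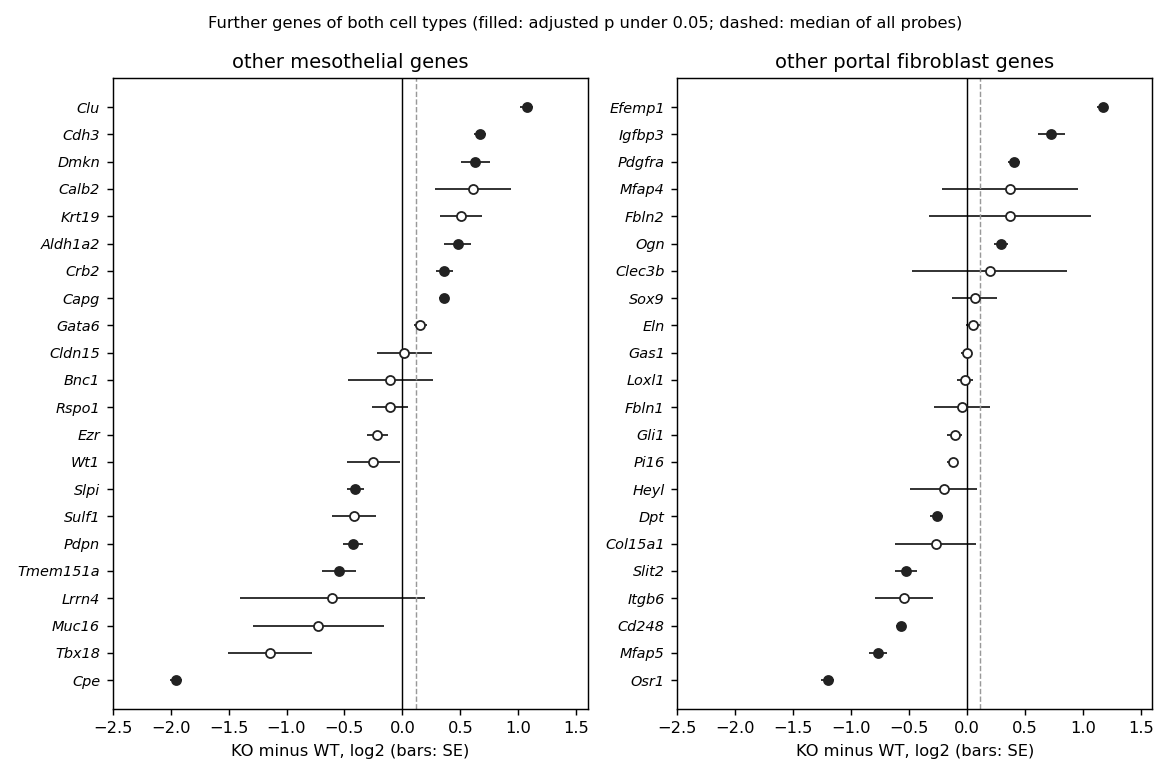
Log2 difference, knockout minus wild type, of 22 further mesothelial genes (left) and 22 further portal fibroblast genes (right), with the SE as bars, current symbols on the vertical axes, and filled points for an adjusted p under 0.05. Filled points lie on both sides of 0 in each panel, from -1.95 for Cpe to 1.07 for Clu on the left and from -1.20 for Osr1 to 1.17 for Efemp1 on the right.

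The relatives of the markers were compared as well, and their calls stand beside 42.7% of all probes called, 26.7% higher and 16.0% lower. None of the other 3 uroplakin genes, Upk1a, Upk2 and Upk3a, passed. Upk1a, the closest relative of Upk1b, differed by 0.23 (adjusted p = 0.224) and Upk2 by -0.29 (adjusted p = 0.260). Of the other 5 glypicans, 2 rose and none fell at an adjusted p of 0.05 in limma. Gpc4 rose from 8.97 ± 0.06 to 9.60 ± 0.07 (SD, n = 3), by 0.63. Gpc5 rose by 1.23, a call that ended without wild-type replicates 1 and 3, at adjusted p-values of 0.0733 and 0.0739, and without knockout replicates 2 and 3, at 0.0676 and 0.0673.

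Of 11 other genes of the ectonucleotidase families, not all of whose products lie at the cell surface, 4 rose and 1 fell. The called share was 45.45%, beside 42.7% of all probes. Nt5e, which encodes CD73 and turns AMP into adenosine, the step that follows NTPDases, rose from 6.85 ± 0.02 to 7.99 ± 0.12 (SD, n = 3), or 2.20-fold. Entpd5 of the endoplasmic reticulum rose by 0.90, the pyrophosphate-making gene Enpp1 by 0.70 and Entpd3 by 0.70. The Entpd3 call ended without wild-type replicate 3 and knockout replicates 1 and 2, at adjusted p-values of 0.0624, 0.0586 and 0.0572, and with the trended and robust prior, at 0.214. Entpd7 fell by 0.38, a call that ended without wild-type replicates 1 and 3, at 0.0686 and 0.0678, and without knockout replicates 1 and 2, at 0.0548 and 0.0650. Entpd1, the main ATP-cutting enzyme of endothelium and macrophages, named after its value was seen, differed by 0.15 (adjusted p = 0.325).

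Both measured relatives of Gpm6a went the other way from it. Gpm6b, its closest homologue, rose from 1.79 ± 0.51 to 3.17 ± 0.15 (SD, n = 3), a step of 1.38 with 0.0129 as its adjusted p in limma. The step was 0.96 with the linear offset, and the call ended with the replicate block, at 0.0510. Without the dimmest 25% of probes Gpm6b was not tested. Plp2 rose by 0.37, or by 0.21 after quantile normalisation. Of 3 other genes of sialomucins, only Emcn passed, and it fell from 4.47 ± 0.10 to 2.84 ± 0.60 (SD, n = 3), opposite in sign to Cd34. After quantile normalisation and cyclic loess 2 of the 3 passed as lower.

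Stellate markers were read too, since the RNA is labelled as that of stellate cells. Whether they were detected was not tested, nor was the labelled cell type. Gfap averaged only 1.75 and Vipr1 1.98 over the wild-type arrays. Of 13 measured stellate genes, 7 rose and 1 (Des) fell, a called share of 61.54% beside 42.7% of all probes. None was at a floor, and the summed log2 signal ran from 80.0 to 80.3 in wild-type and from 89.3 to 92.3 in knockout cells. Lrat rose by 2.41, Cygb by 2.05, Colec11 by 1.44, Rgs5 by 0.99 and the transcription factor gene Hand2 by 0.83. On the same arrays 2 of the 8 portal fibroblast and mesothelial markers rose, 3 fell and 3 did not pass.

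Lists for the other cells a liver preparation can hold had calls in both directions. The called share was 44.44% for cholangiocyte, 41.67% for macrophage and 45.45% for hepatocyte genes, beside 42.7% of all probes. Their median differences were 0.12, -0.06 and 0.14, beside 0.12 over all probes. In the sums below, dim genes near a floor weigh as much as bright ones. Of 9 cholangiocyte genes, 2 rose and 2 fell, with summed signals of 34.6 to 35.6 in wild-type and 36.5 to 37.3 in knockout cells. That sum includes the dim gene Cftr, which differed by 1.12 without passing (adjusted p = 0.240 in limma). Spp1 fell by 1.26 and Cldn4 by 0.60, and Cdh1 rose by 0.63, ending at an adjusted p of 0.0554 without wild-type replicate 2. Prom1 rose by 1.13, or by 0.55 with the linear offset, with 1 wild-type array at its floor. Its call ended without wild-type replicates 1 and 2, at 0.104 and 0.0635, without knockout replicates 1, 2 and 3, at 0.102, 0.101 and 0.0727, and after quantile normalisation, cyclic loess and with the trended and robust prior, at 0.0874, 0.0819 and 0.114. Of 12 macrophage genes, 1 rose and 4 fell, with sums of 75.9 to 77.6 and 71.2 to 74.5. The macrophage surface gene Emr1 (now Adgre1) fell by 1.27, Cd14 by 1.01 and the complement genes C1qa and C1qb by 0.98 and 0.63, whereas the Kupffer cell lectin gene Clec4f rose by 0.52. Of 11 hepatocyte genes, 4 rose and 1 fell, with sums of 58.3 to 61.8 and 63.2 to 65.3. Afp, a foetal liver protein that is read alongside Gpc3 in liver tumours, rose by 2.31, or by 1.22 with the linear offset, and with 2 wild-type arrays at their floor neither value is exact. Alb1 rose by 0.88, Ahsg by 0.49 and Trf by 0.36 (0.16 after quantile normalisation), and Ttr fell by 0.42. No gene of these lists was at the floor throughout a genotype, and their part in the marker signals was not tested.

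**Figure D4:**
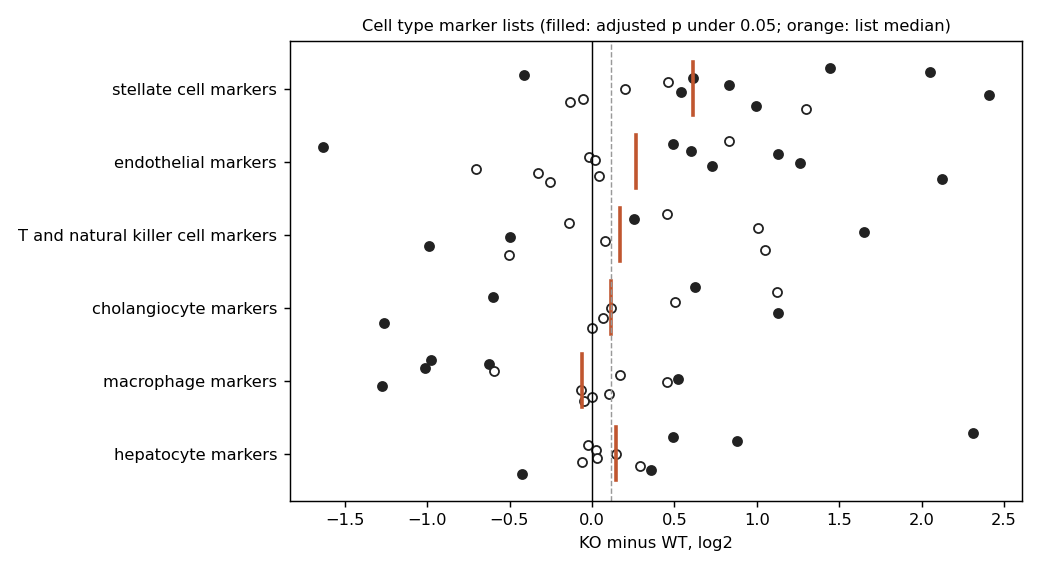
Log2 difference, knockout minus wild type (horizontal axis), of each measured gene in 6 lists of cell type markers (vertical axis), with filled points for an adjusted p under 0.05, an orange bar at each list's median and a dashed line at the median of all probes. The stellate list has the median farthest from 0 (0.61), and every list holds filled points on both sides of 0.

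For each marker that passed, the probes with the most similar profile were sought among those whose 2 genotype means lay within 1 log2 unit of its own. Likeness was Pearson's r over the 6 arrays, which all share the step between the 2 genotypes, so it is only a description. For Thy1 there were 122 candidates, and the closest were Esm1 (r = 0.999), the channel gene Trpc6 (r = 0.999) and the metalloprotease gene Tll1 (r = 0.997). For Upk1b they were C130034I18Rik (r = 0.996), the membrane fusion gene Stx3 (r = 0.992) and Ear14 (r = 0.991), of 1360 candidates. For Gpm6a they were Hyal4 (r = 0.985), Bsx (r = 0.984) and 6030405A18Rik (r = 0.980), of 941. For Entpd2 they were Wdr66 (r = 0.992), Slc24a2 (r = 0.977) and Slc27a5 (r = 0.975), of 2381. For Cd34 they were 2410002I01Rik (r = 0.995), Rgs9 (r = 0.995) and Fcamr (r = 0.993), of 2523.

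Over all settings together, the markers formed 3 groups. Thy1 and Upk1b passed the threshold under every one of 14 alternatives. Gpm6a, Entpd2 and Cd34 kept their direction under all the alternatives in which they were tested, but lost the call under some. Upk3b, Msln and Gpc3 passed under none of those in which they were tested, with adjusted p-values of at least 0.181.

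**Figure D5:**
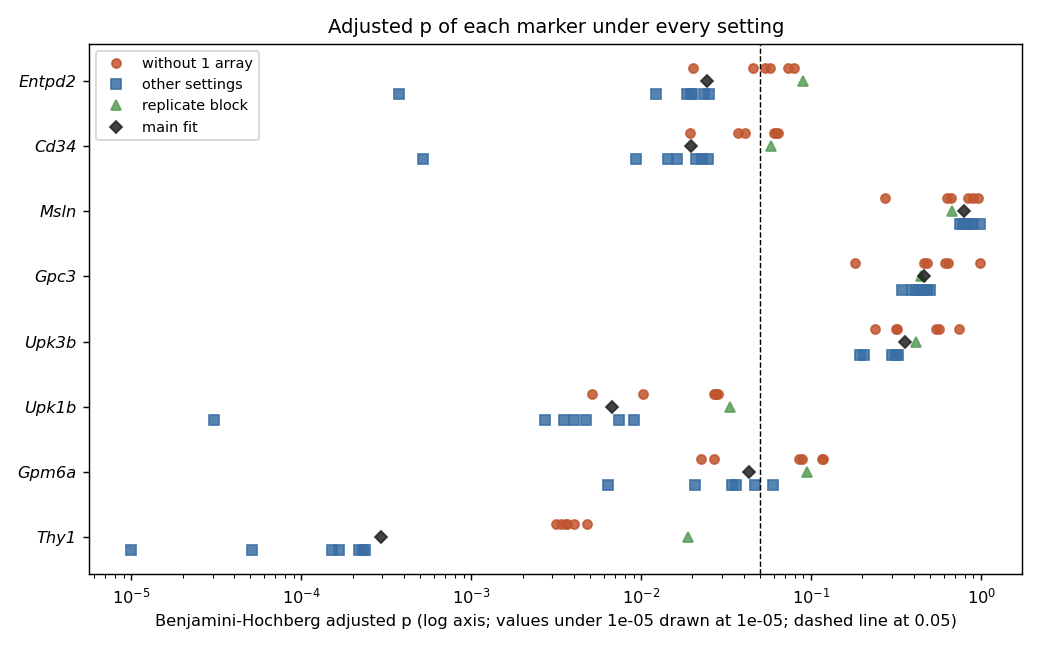
Benjamini-Hochberg adjusted p from limma (horizontal log axis, the smallest values drawn at its left limit) of each marker under the main fit, without 1 array, with the replicate block and under the other settings. All Thy1 and Upk1b points lie left of the dashed line at 0.05, Gpm6a, Entpd2 and Cd34 lie on both sides of it, and Msln, Gpc3 and Upk3b lie to its right.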

How the data were processed

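The deposited values are a table of log2 signals of 23473 probes on 6 single-colour arrays. The labels call them quantile normalised by the authors, but the values do not share 1 distribution. Base 2 was inferred from their range. Their background correction is not stated. The array medians were equal, but the lowest values ran from 0 to 0.32, 4.00% to 5.35% of probes were at an array's floor, and the highest values were 15.7 to 15.8 in wild-type and 16.6 to 16.8 in knockout arrays. Quantile normalising them again moved the median difference of all probes from 0.12 to 0.02 and the higher calls from 6271 to 5242. Pearson correlations across probes were 0.986 within wild type, 0.981 to 0.982 within knockout and 0.967 to 0.971 between them. No batch is given in the labels. A microRNA kit and tumour material appear in the labelling protocol, unlike the design.

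Symbols come from the platform annotation: 16631 probes had 1 symbol and 6842 none. Of 155 further list entries 137 were measured, 9 entries through an older symbol in RefSeq's gene table, and the brightest probe stood for a gene. Differences were fitted across all probes with lmFit and eBayes (limma 3.58.1, R 4.3.3), two-sided, with Benjamini-Hochberg adjustment over all probes and a threshold of 0.05. The fit was run on simulated data with normal noise, no floor and changes in few probes, unlike these data. That run was a check of the calculation only. Figures used matplotlib 3.10.9. Sept4 was not analysed here.

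The members and lists were chosen with earlier results of these data known. All markers are named. From every other list up to 5 called genes were named by size of difference, or the 2 with the smallest p where none was called, and the 3 most similar probes per called marker. The alternatives were quantile normalisation, cyclic loess, leaving out the dimmest 25% of probes or probes at a floor, an offset added on the linear scale, array weights, a trended and robust prior, a block for the replicate number and leaving out each array in turn. No column of values was left unmapped.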

Additional observations from a re-analysis of the deposited data

How the results depend on the processing

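All 8 markers kept their direction after quantile normalisation, cyclic loess, the linear offset, the trended and robust prior, array weights and the replicate block. The 5 calls also stayed 5 after both scalings, although the median of all probes moved from 0.12 to 0.02 and 0.01, and the share of all calls that were higher from 62.6% to 52.5% and 51.5%. Leaving out 1 array gave 2 to 4 called markers, of which 0 to 2 were higher. Without knockout replicate 3 the uncalled differences of Msln and Gpc3 turned positive. Over the arrays left out in turn they ran from -0.2237 to 0.09255 and from -0.75 to 0.0064. Without the dimmest 25% of probes, where Gpm6a and Upk3b were not tested, and with array weights 4 passed. With the replicate number as a block 2 markers passed, Thy1 and Upk1b, and 0 were higher. The adjusted p-values of Cd34, Entpd2 and Gpm6a were then 0.0576, 0.0898 and 0.0944. Arrays with the same number did not deviate together, with correlations of their deviations of 0.0077, -0.0014 and -0.0020, so the numbers were not taken to pair the arrays. Over all probes the block called 7724, against 10025. Among list genes named above, the block also ended the calls of Cd8a, Cd28, Vwf, Prom1, Entpd7 and Gpm6b. Their adjusted p-values in limma were then 0.1, 0.0939, 0.0728, 0.0962, 0.0549 and 0.0510. The 5 dim markers limit what can be seen: the interval of Upk3b spans from -2.57 to 0.86.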
